A study of Mus musculus with 36 samples.

Results

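The 10 genes described here are Sox1, Sox2, Sox3, Sox21, Sox4, Sox11, Sox8, Sox9, Sox5 and Sox6, the Sox transcription factors best known from neural and glial development. They were taken by name from the gene tables, which list 19426 genes in all. All 10 are listed for neural stem cells (NSCs), and 9 are listed for embryonic stem cells (ESCs), where Sox6 has no row. The cells were male mouse ESCs of the V6.5 strain (mixed 129/C57BL/6), either Tet triple knockout (TKO) or Tet wildtype (WT), and NSCs made from them. TKO cells carry knockouts of the 3 TET dioxygenases, enzymes that oxidise 5-methylcytosine in DNA. RNA-seq covered 2 TKO and 3 WT lines in NSCs, and 2 TKO and 3 WT lines in ESCs, described by the submitters as independent lines, so p-values measure the spread between lines. NSCs were harvested on day 6 of culture after 1 passage, and ESCs after preplating for 45 minutes against feeder cells and 24 hours on gelatin in serum and LIF. Promoter-capture Hi-C (pcHiC), which lists contacts between captured promoter fragments and other fragments, covered 1 TKO and 1 WT NSC sample.

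SOX proteins bind DNA through an HMG box and usually act together with a partner factor such as a POU or PAX protein. The SoxB1 group, Sox1, Sox2 and Sox3, keeps neural progenitors undifferentiated, and Sox2 is also a core factor of pluripotent cells, where it works with Oct4, the product of Pou5f1. Sox21, of the SoxB2 group, counteracts SoxB1 factors and favours neuronal differentiation. Sox4 and Sox11 (SoxC) drive genes of young neurons, Sox8 and Sox9 (SoxE) act in glial specification, and Sox5 and Sox6 (SoxD) restrain oligodendrocyte precursors and assist Sox9 in cartilage.

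The recovered reads came to between 41007791 and 49060991 per library. Tet1, Tet2 and Tet3 served to check the labels. In ESCs they were lower in TKO than in WT, with log2 fold changes of -1.17, -0.56 and -1.23 and limma adjusted p of 2.45e-06, 0.00513 and 0.00163. In NSCs Tet1 changed by -0.47 (adjusted p = 0.0320) and Tet3 by -0.73 (adjusted p = 1.60e-05), while Tet2 did not pass the test (adjusted p = 0.459). Counts over a whole gene do not check a deletion of some of its exons. Neural stem cell markers outside the Sox genes summed to 199650 and 209274 normalised counts in TKO NSCs, against 402009, 403481 and 387844 in WT NSCs. Pluripotent cell markers summed to 6410 and 3565 in TKO NSCs, against 1420, 1451 and 1686 in WT NSCs, and to at least 231001 in every ESC library. Epithelium markers summed to 9656 and 5064 in TKO NSCs, against 2483, 2728 and 2139 in WT NSCs. Of the markers of other cell types tested in NSCs, 7 of 10 fibroblast and mesenchyme markers rose and 3 fell, 3 of 6 epithelium markers rose and 0 fell, 1 of 5 endoderm markers rose and 1 fell, and 1 of 3 endothelium and microglia markers rose and 1 fell. Their part in the Sox values was not tested. Beside these counts, 18.2% of all 17744 genes tested in NSCs were called higher and 19.5% lower. Whole regions also moved: the median gene of chromosome 11 stood 0.53 and 0.54 above the WT mean (log2) in TKO NSCs and 0.26 and 0.53 above it in TKO ESCs, the distal part of chromosome 6 stood between 0.49 and 0.54 above it in all 4 TKO libraries, and chromosome 8 stood 0.39 and 0.41 below it in TKO ESCs (values of -0.39 and -0.41) but within 0.04 of it in TKO NSCs. Sox9 lies on chromosome 11, Sox5 on distal chromosome 6 and Sox1 on chromosome 8.

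Promoter sequences of 8 of the 10 members were found in RefSeq (GRCm38.p6), from 250 bases before to 50 bases after an annotated start. Those of Sox1, Sox2 and Sox21, which moved together in NSCs, and of Sox11, which did not move with them, are shown because they show how dense these promoters are in CpG, the dinucleotide that carries most cytosine methylation in mammals. Capitals mark CpG.
Sox1, chr8:12395269-12395568, plus strand: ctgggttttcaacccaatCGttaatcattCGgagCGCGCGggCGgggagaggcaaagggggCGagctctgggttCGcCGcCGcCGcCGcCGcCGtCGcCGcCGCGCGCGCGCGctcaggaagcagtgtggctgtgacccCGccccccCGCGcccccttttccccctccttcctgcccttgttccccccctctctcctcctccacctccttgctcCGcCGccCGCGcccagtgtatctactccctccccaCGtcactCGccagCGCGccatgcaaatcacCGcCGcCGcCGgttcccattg
Sox2, chr3:34649745-34650044, plus strand: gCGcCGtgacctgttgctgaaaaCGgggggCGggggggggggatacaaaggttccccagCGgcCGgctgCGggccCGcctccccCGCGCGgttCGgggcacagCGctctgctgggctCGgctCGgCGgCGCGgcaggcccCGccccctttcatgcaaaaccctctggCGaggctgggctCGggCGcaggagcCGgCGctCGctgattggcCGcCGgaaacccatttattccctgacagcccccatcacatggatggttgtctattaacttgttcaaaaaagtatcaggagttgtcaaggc
Sox21, chr14:118236981-118237280, minus strand: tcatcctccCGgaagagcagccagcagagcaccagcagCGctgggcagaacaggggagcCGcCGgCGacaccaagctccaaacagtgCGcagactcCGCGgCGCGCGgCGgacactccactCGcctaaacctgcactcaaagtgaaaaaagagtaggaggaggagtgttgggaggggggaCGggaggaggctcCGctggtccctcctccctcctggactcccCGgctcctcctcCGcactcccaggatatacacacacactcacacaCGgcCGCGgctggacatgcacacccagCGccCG
Sox11, chr12:27342669-27342968, minus strand: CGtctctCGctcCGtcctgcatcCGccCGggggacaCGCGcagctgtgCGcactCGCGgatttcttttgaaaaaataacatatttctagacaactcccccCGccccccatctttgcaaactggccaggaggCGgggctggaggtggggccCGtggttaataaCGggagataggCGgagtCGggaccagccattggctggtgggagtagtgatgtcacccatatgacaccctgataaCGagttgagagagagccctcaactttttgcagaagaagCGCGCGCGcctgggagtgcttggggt
The Sox1 window held 37 CpG, that of Sox2 27, that of Sox21 22 and that of Sox11 21, against a median of 7 over all 32851 RefSeq promoter windows. Fewer CpG were found in 94.4% of all windows than in that of Sox1, in 84.5% than in that of Sox2, in 76.9% than in that of Sox21 and in 75.2% than in that of Sox11. The Sox8 window held 21 CpG and that of Sox4 12. Windows of the SoxD genes held 3 for Sox5 and 2 to 13 over the 6 windows of Sox6. The Sox5 window (chr6:143947057-143947356, minus strand) lies inside the gene, whose span runs to 144782287. It is therefore an internal start and does not describe the outermost start of Sox5. Windows of Sox6 also include starts inside the gene, and the 2 nearest its upper end held 11 and 13. Of the windows counted, those of Sox1 and Sox2 held the most CpG, and none was found for Sox3 or Sox9. Whether the number of CpG goes with the changes in NSCs was not tested. The Sox core motif ACAAT (either strand) was in none of the 4 windows shown and in 31.0% of all windows, and ACAAAG (either strand) was in that of Sox2 once and in 18.7% of all windows. Both motifs begin with ACAA and were counted separately. DNA methylation at these sites was not analysed here.

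In NSCs, 8 of the 10 Sox genes differed between TKO and WT: 6 were lower in TKO (Sox1, Sox2, Sox3, Sox21, Sox5 and Sox6) and 2 were higher (Sox4 and Sox9), while Sox11 and Sox8 did not pass the test. A gene was called at an adjusted p under 0.05 (limma on log2(normalised count + 1), two-sided, Benjamini-Hochberg over all genes tested). Of all 17744 genes tested, 37.7% were called, 19.5% lower and 18.2% higher. The median log2 fold change was -0.81 over the 10 members and 0.01 over all genes tested. In such bulk samples, fewer cells of a type and less RNA per cell cannot be told apart. Whether groups overlap is given below as description only, since the share of all genes without overlap was not counted.

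**Figure D1:**
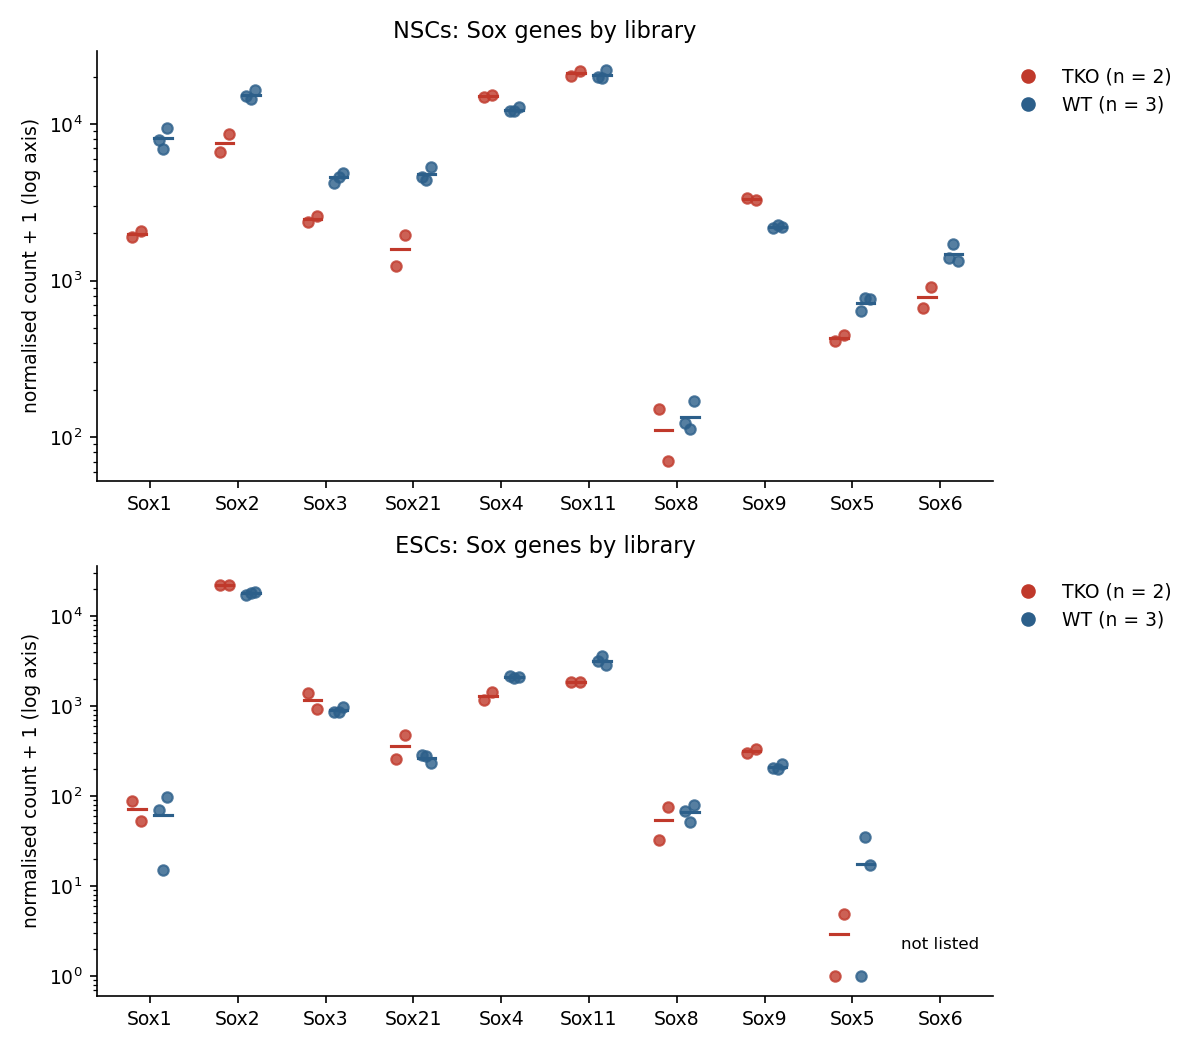
Normalised count + 1 (log axis) of each Sox gene in every library, with TKO (red, 2 libraries) left of WT (blue, 3 libraries); horizontal lines are group means, NSCs above and ESCs below. In NSCs the red and blue points of Sox1, Sox2, Sox3, Sox21, Sox4, Sox9, Sox5 and Sox6 do not overlap, and in ESCs Sox6 is not listed. The share of all genes whose points do not overlap was not counted.

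The SoxB1 genes all fell in TKO NSCs, Sox1 by most. Sox1 (chr8:12395519-12399555), one of the earliest markers of neural plate, had 1892 and 2080 normalised counts in TKO NSCs, against 7919, 6912 and 9469 in WT NSCs. Every TKO library lay below every WT library, at 0.247 of the WT level (log2 fold change -2.02, SE 0.11, adjusted p = 2.15e-07). Sox2 (chr3:34649995-34652461) had 6629 and 8555 normalised counts in TKO NSCs, against 15088, 14463 and 16470 in WT NSCs. The groups did not overlap, and Sox2 changed by -1.02 in log2 units (SE 0.10, adjusted p = 1.08e-05). Sox3 (X chromosome, 60891366 to 60893430) had 2373 and 2591 normalised counts in TKO NSCs, against 4218, 4586 and 4858 in WT NSCs. The TKO libraries were again the lowest, with a log2 fold change of -0.87 (SE 0.08, adjusted p = 9.51e-06).

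The makeup of the SoxB1 pool shifted with its size. Each of the 3 genes has a single exon, so their counts can be set beside each other per kilobase of gene. The 3 genes summed to 4305 and 5238 normalised counts per kb in TKO NSCs, against 10120, 9796 and 11374 in WT NSCs. Sox1 made up 10.9% and 9.84% of that sum in TKO NSCs, against 19.4%, 17.5% and 20.6% in WT NSCs. Sox3 made up 26.7% and 24.0% in TKO NSCs, against 20.2%, 22.7% and 20.7% in WT NSCs, and Sox2 62.4% and 66.2% against 60.4%, 59.8% and 58.7%. The groups did not overlap for any of the 3 shares: that of Sox1 was lower in both TKO libraries, and those of Sox2 and Sox3 were higher. The 3 shares make up the whole sum in each library, so a lower share of Sox1 forces a higher joint share of Sox2 and Sox3. They are therefore not 3 separate results, and in level all 3 genes fell. No test was run on the shares.

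**Figure D2:**
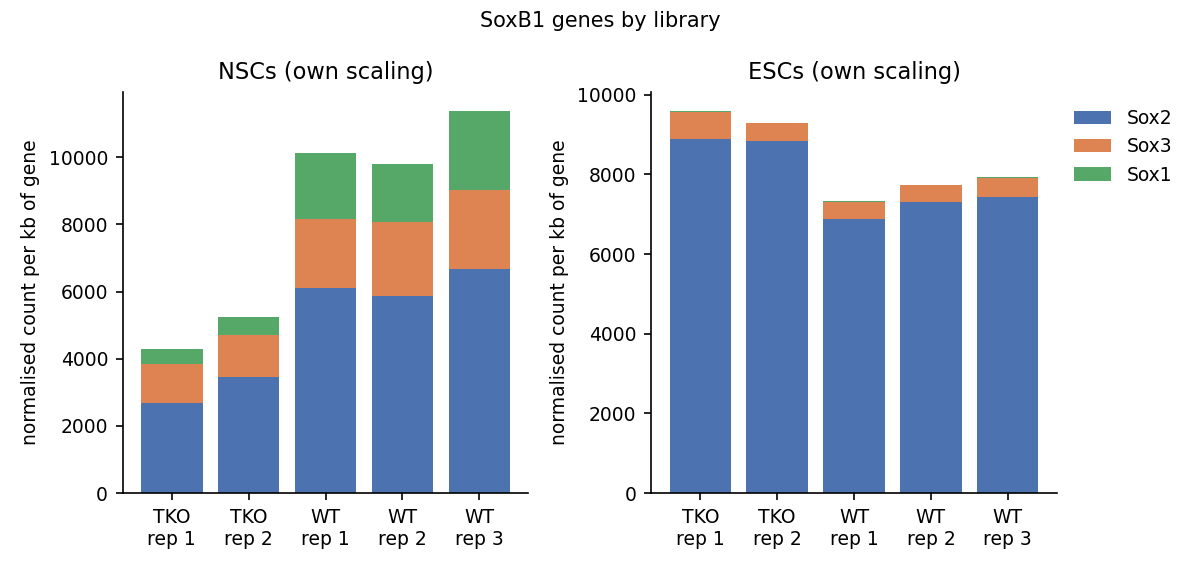
Normalised counts per kb of gene of Sox2, Sox3 and Sox1, stacked for each library, with TKO left of WT; the NSC and ESC tables were scaled separately, so bars compare within a panel. The NSC sum is 4305 and 5238 in TKO against 9796 to 11374 in WT, while in ESCs both TKO bars stand above the 3 WT bars.

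Sox21 (chr14:118233233-118237030) fell together with the SoxB1 genes it is known to oppose. It had 1237 and 1941 normalised counts in TKO NSCs, against 4576, 4376 and 5303 in WT NSCs. Both TKO libraries were below all WT libraries (log2 fold change -1.61, SE 0.15, adjusted p = 1.17e-05), and they differed from each other more than in Sox1 or Sox3.

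The SoxC genes, which are targets and drivers of neuronal differentiation programmes, did not fall. Sox4 (chr13:28948919-28953699) had 14854 and 15214 normalised counts in TKO NSCs, against 12004, 12087 and 12712 in WT NSCs. Sox4 was thus higher in both TKO libraries, by 0.29 in log2 units (SE 0.06, adjusted p = 0.00176). Sox11 (chr12:27334268-27342718) had 20309 and 21701 normalised counts in TKO NSCs, against 19985, 19493 and 21957 in WT NSCs. These ranges overlap, and the log2 difference was 0.04 (SE 0.07, adjusted p = 0.693).

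Levels per kb put these changes in order. In TKO NSCs the order was Sox4 with 3144 ± 53.2, Sox2 with 3077 ± 552, Sox11 with 2485 ± 116, Sox3 with 1202 ± 74.5, Sox1 with 492 ± 33.0 and Sox21 with 418 ± 131 normalised counts per kb (SD, n = 2). In WT NSCs it was Sox2 with 6218 ± 416, Sox4 with 2566 ± 81.0, Sox11 with 2423 ± 154, Sox3 with 2205 ± 156, Sox1 with 2006 ± 319 and Sox21 with 1251 ± 128 (SD, n = 3). Sox2 stood clear of every other of these genes in WT NSCs, where its lowest library had 5863 per kb. In TKO NSCs the libraries of Sox2 (2687 and 3468 per kb) spanned those of Sox4 (3107 and 3182), so their order is not resolved. The ranges of Sox1 and Sox21 also overlap in TKO NSCs, as do those of neighbours from Sox4 to Sox1 in WT NSCs.

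The SoxE genes were unlike each other. Sox9 (chr11:112782210-112787757), a switch from neuron to glia production in the developing nervous system, had 3383 and 3280 normalised counts in TKO NSCs, against 2168, 2259 and 2193 in WT NSCs. Both TKO libraries were higher, with a log2 fold change of 0.59 (SE 0.07, adjusted p = 7.75e-05). The chromosome 11 medians of these libraries, 0.53 and 0.54, are nearly as large; with each chromosome centred on its own median, Sox9 changed by 0.06 and was not called (adjusted p = 0.621, the highest of 15 alternatives, whose lowest was 6.93e-13). Sox8 (chr17:25565893-25570686), which acts alongside other SoxE genes in oligodendrocytes, had 151 and 69.3 normalised counts in TKO NSCs, against 123, 112 and 169 in WT NSCs. The groups overlap and the TKO libraries lie at both ends, so no difference was detectable at this level (log2 fold change -0.37, SE 0.37, adjusted p = 0.471). Sox10, the remaining SoxE gene, is not listed in either table.

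The SoxD genes both fell. Sox6 (chr7:115470872-116040776) had 670 and 907 normalised counts in TKO NSCs, against 1399, 1712 and 1331 in WT NSCs. Sox5 (chr6:143828425-144782287) had 413 and 447 normalised counts in TKO NSCs, against 635, 770 and 761 in WT NSCs. In neither gene did the groups overlap. The log2 fold change was -0.91 for Sox6 (SE 0.15, adjusted p = 0.000524) and -0.74 for Sox5 (SE 0.14, adjusted p = 0.00174). Sox5 fell in a region where the median gene was higher in TKO; centred on that region it changed by -1.27.

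**Figure D3:**
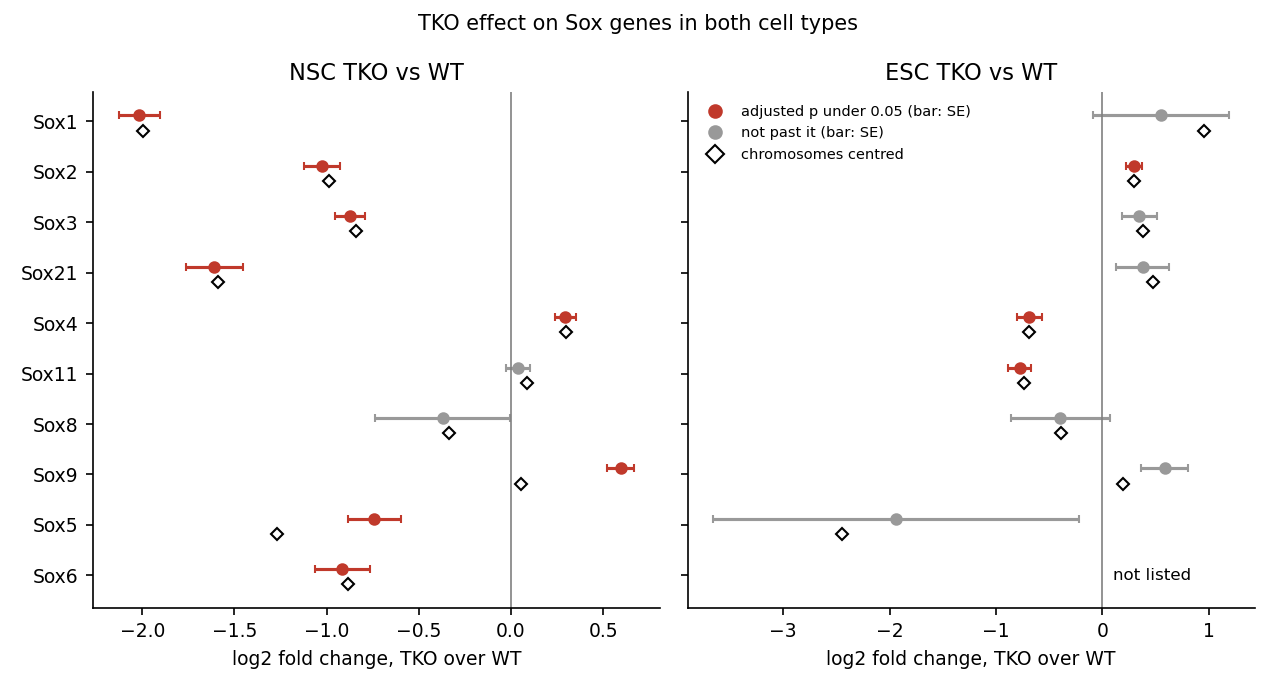
Log2 fold change of TKO over WT for each Sox gene in NSCs (left) and ESCs (right), with SE bars; red points passed an adjusted p of 0.05, grey points did not, and open diamonds are values after centring each chromosome. Sox9 moves from 0.59 to 0.06 in NSCs on centring, while Sox1, Sox2, Sox3 and Sox21 lie near their uncentred values there; the 2 horizontal axes differ in range.

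Transcripts that overlap or neighbour Sox genes were also measured. Sox2ot, the long noncoding RNA whose gene contains Sox2, had 371 and 401 normalised counts in TKO NSCs, against 563, 593 and 637 in WT NSCs (log2 fold change -0.63, SE 0.14, adjusted p = 0.00490). Sox1ot had 322 and 515 in TKO NSCs, against 721, 523 and 907 in WT NSCs (log2 fold change -0.78, SE 0.24, adjusted p = 0.0252). Both were lower in TKO, although the highest TKO value of Sox1ot (515) nearly reached the lowest WT value (523). In ESCs, where Sox2 was higher in TKO, Sox2ot had 21.0 and 45.2 in TKO, against 80.1, 76.4 and 66.4 in WT. That log2 fold change of -1.24 (SE 0.47) did not pass the test (limma adjusted p = 0.0898). The sources used here do not say how reads over both Sox2 and Sox2ot were assigned, and how far their counts are separate was not tested. The noncoding 2610035D17Rik, a neighbour of Sox9 on chromosome 11, had 394 and 358 in TKO NSCs, against 159, 167 and 143 in WT NSCs, and rose by 1.26 in log2 units (SE 0.21, adjusted p = 0.000595). Of the 6 other Sox family genes tested in NSCs (Sox12, Sox13, Sox15, Sox17, Sox18 and Sox30), limma called 0, 3 had an unadjusted p under 0.05, and edgeR and DESeq2 called 1 each. Of 4 noncoding transcripts named for Sox genes or next to them, 1 rose and 3 fell.

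In ESCs, 3 of 9 Sox genes differed: Sox2 was higher in TKO, and Sox4 and Sox11 were lower. Of 17033 genes tested in ESCs, 14.3% were called, 7.29% higher and 7.02% lower. The median log2 fold change was 0.30 over the 9 members and 0.01 over all genes tested. Sox2 had 21938 and 21792 normalised counts in TKO ESCs, against 17004, 18051 and 18368 in WT ESCs. Both TKO libraries were higher than every WT library (log2 fold change 0.30, SE 0.07, adjusted p = 0.0112). Of 11 pluripotent cell markers tested in ESCs, 5 rose and 2 fell, with a median of 0.18. Nanog, another core pluripotency gene, rose by 0.47 (SE 0.07, adjusted p = 0.000472). Klf2 fell by -0.54 (SE 0.07, adjusted p = 0.000109), and Pou5f1 did not pass the test (0.18, adjusted p = 0.286). Without WT replicate 2 or TKO replicate 2, Sox2 missed the threshold, with values of 0.31 (adjusted p = 0.0606) and 0.30 (adjusted p = 0.0515); over all its alternatives the adjusted p ran between 0.00197 and 0.0634.

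The SoxC genes fell in TKO ESCs, where they did not in NSCs. Sox4 had 1167 and 1441 normalised counts in TKO ESCs, against 2141, 2031 and 2092 in WT ESCs. Sox11 had 1850 and 1832 in TKO ESCs, against 3126, 3556 and 2833 in WT ESCs. Neither gene's groups overlap, and the log2 fold changes were -0.69 for Sox4 (SE 0.12, adjusted p = 0.000986) and -0.78 for Sox11 (SE 0.11, adjusted p = 0.000223).

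The other 6 members did not pass the test in ESCs. Sox3 had 1398 and 928 normalised counts in TKO ESCs, against 853, 861 and 980 in WT ESCs, and its ranges overlap (adjusted p = 0.178). Sox9 had 298 and 333 in TKO ESCs, against 206, 196 and 228 in WT ESCs. Its groups do not overlap, but the log2 difference of 0.58 had an SE of 0.22 and missed the threshold (adjusted p = 0.0879). With chromosomes centred, the difference of Sox9 in ESCs was 0.19 (adjusted p = 0.654). Sox21 ranged between 235 and 469 normalised counts over the 5 ESC libraries, Sox1 between 14.1 and 96.6 and Sox8 between 31.4 and 77.5, with overlapping groups in all 3. Sox5 was close to absent, with 0 and 3.84 in TKO ESCs, against 0, 34.2 and 16.1 in WT ESCs.

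The TKO effect differed between the cell types for 6 of the 9 members tested in both, against 20.7% of all 15381 genes. The value tested is the TKO effect in NSCs minus that in ESCs, on the log2 scale. It was negative for the SoxB genes, with -2.57 for Sox1 (SE 0.76, adjusted p = 0.0282), -1.32 for Sox2 (SE 0.13, adjusted p = 1.02e-05), -1.22 for Sox3 (SE 0.20, adjusted p = 0.000686) and -1.99 for Sox21 (SE 0.32, adjusted p = 0.000648). Negative calls made up 9.80% of all genes tested and positive calls 10.9%. It was positive for both SoxC genes, with 0.98 for Sox4 (SE 0.12, adjusted p = 6.00e-05) and 0.82 for Sox11 (SE 0.12, adjusted p = 0.000407). For Sox9 the difference was 0.01 (SE 0.17, adjusted p = 0.980), and Sox8 (SE 0.64) and Sox5 (SE 1.55) were too variable to place. Sox1 had few counts in ESCs, and the adjusted p of its difference ran between 0.00276 and 0.106 over 20 alternatives and missed the threshold in 7 of them. Sox1 missed it without TKO ESC replicate 1, WT NSC replicate 1 or 3, or either TKO NSC replicate, with adjusted p of 0.102, 0.0559, 0.0622, 0.0855 and 0.0643, while the log2 difference stayed between -3.10 and -1.75.

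Between the cell types, most members were higher in NSCs than in ESCs in both genotypes. These comparisons used reads of both tables scaled together, and they share their libraries with the TKO against WT comparisons above. Of 9 members, 8 differed between WT NSCs and WT ESCs, 7 higher in NSCs and 1 lower, beside 75.3% of all 15381 genes (37.8% higher, 37.5% lower). Likewise 8 differed between TKO NSCs and TKO ESCs, 7 higher and 1 lower, beside 70.2% of all genes (35.4% higher, 34.8% lower). The total of members called is near that of all genes, while 7 of 9 were higher in NSCs in each genotype. With libraries scaled to equal totals the median gene stood 0.33 higher in WT NSCs and 0.39 higher in TKO NSCs, and the calls split into 7208 higher and 4544 lower in WT and 7069 higher and 3859 lower in TKO, against 5815 and 5769 in WT and 5439 and 5359 in TKO with the scaling used here.

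Sox2 was the member that was lower in NSCs. It averaged 6405 ± 1120 jointly scaled reads in TKO NSCs and 25430 ± 323 in TKO ESCs (SD, n = 2), a log2 fold change of -2.0 (SE 0.10, adjusted p = 2.55e-10). It averaged 13080 ± 873 in WT NSCs and 20758 ± 722 in WT ESCs (SD, n = 3), a log2 fold change of -0.67 (SE 0.08, adjusted p = 2.60e-06). With libraries scaled to equal totals Sox2 was still lower in NSCs, with log2 fold changes of -1.60 in TKO and -0.34 in WT. Sox1 averaged 1676 ± 105 in TKO NSCs and 81.5 ± 30.3 in TKO ESCs (SD, n = 2), against 6907 ± 1097 in WT NSCs and 69.7 ± 48.8 in WT ESCs (SD, n = 3). Sox1 was thus higher in NSCs in each genotype, by 4.40 (SE 0.59, adjusted p = 1.02e-05) in TKO and by 6.98 (SE 0.48, adjusted p = 5.11e-09) in WT on the log2 scale.

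Sox4 was higher in NSCs by 3.07 (SE 0.09) in TKO and by 2.10 (SE 0.07) in WT, and Sox11 by 3.05 (SE 0.10) in TKO and by 2.24 (SE 0.08) in WT. Sox9 was higher by 2.94 in both genotypes (SE 0.13 in TKO, 0.11 in WT). Sox3 was higher by 0.66 (SE 0.16) in TKO and by 1.89 (SE 0.13) in WT; the TKO value was 0.36 without TKO ESC replicate 2 and 1.06 with equal totals. Sox21 was higher by 1.70 (SE 0.25) in TKO and by 3.71 (SE 0.20) in WT. The step between cell types was therefore smaller in TKO for Sox1, Sox3 and Sox21 and larger for Sox4, Sox11 and, downward, Sox2, as the tests of the difference above give it. Sox5 averaged 363 ± 18.4 in TKO NSCs and 615 ± 64.0 in WT NSCs, while ESC libraries held at most 39.8 jointly scaled reads of it. Sox8 did not pass the test in either genotype (adjusted p = 0.289 in TKO and 0.198 in WT).

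Genes most like a member over the 10 jointly scaled libraries were found by Pearson correlation on log2 values among 15372 genes. The libraries fall into 4 groups, so high values are easily reached and carry no test. Closest to Sox1 were Gm7694, Inha and Sorbs3 (r of 0.996, 0.996 and 0.994). Closest to Sox2 were Cisd1, Cep55 and Robo4 (r of 0.989, 0.987 and 0.986), and closest to Sox9 were Trp53i11, Homer3 and Ndn (r of 0.998, 0.997 and 0.997). Of these, Gm7694 changed by -2.05 in TKO against WT NSCs (SE 0.10, adjusted p = 8.54e-08), close to the value of Sox1, and Ndn by 0.57 (SE 0.06, adjusted p = 3.51e-05), close to that of Sox9 before centring. The others were less close to their member. Inha changed by -1.43 and Sorbs3 by -1.05, beside Sox1. Cisd1 changed by -0.52, Cep55 by -0.77 and Robo4 by -2.74, beside Sox2. Trp53i11 changed by 0.40 and Homer3 by 0.32, beside Sox9. All were chosen for following the member over these same libraries.

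Partners and targets of SoxB1 factors moved in both directions in NSCs. The counts of this and the following lists stand beside 37.7% of all genes called in NSCs and 14.3% in ESCs. Of 8 SoxB1 partner factors tested, 3 rose and 4 fell in TKO, with a median log2 fold change of -0.55 beside 0.01 over all genes. Pax6, a partner of Sox2 in eye and neural tissue, fell to 234 and 78.1 normalised counts in TKO NSCs, against 2825, 2575 and 2840 in WT NSCs (log2 fold change -4.33, SE 0.33, adjusted p = 2.02e-06). Pou3f3, a POU partner in neural progenitors, changed by -1.75 in log2 units (SE 0.12, adjusted p = 1.02e-06). Pou5f1, the pluripotent cell partner, was higher, with 3044 and 1650 in TKO NSCs, against 280, 320 and 422 in WT NSCs (log2 fold change 2.74, SE 0.24, adjusted p = 5.68e-06). Pou3f4 rose by 1.70 (adjusted p = 0.000531). In ESCs limma called 0 of the 7 partners tested, 0 had an unadjusted p under 0.05, and edgeR and DESeq2 called 0.

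Of 9 SoxB1 neural targets tested in NSCs, 4 fell and 1 rose, with a median of -0.47. Nr2e1, an orphan receptor that maintains neural stem cells, changed by -2.32 (SE 0.23, adjusted p = 1.32e-05), Fabp7, a lipid carrier of radial glia, by -1.81 (SE 0.19, adjusted p = 1.99e-05) and Nes, encoding the filament nestin, by -1.09 (SE 0.08, adjusted p = 1.47e-06). Egfr, the receptor for EGF, rose by 1.18 (SE 0.12, adjusted p = 1.60e-05). Nes also fell in ESCs, with a log2 fold change of -0.66 (SE 0.10, adjusted p = 0.000384). Of 10 neural stem cell markers outside Sox, 9 fell and 0 rose in TKO NSCs, with a median of -0.98. Pax6, Slc1a3, Fabp7 and Msi1 had the largest changes, and the marker that did not pass was Hes5 (adjusted p = 0.133). Nes, Fabp7, Hes5 and Cdh2 are in both this list and that of SoxB1 neural targets, so the 2 counts are not separate results.

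Targets that Sox2 shares with Oct4 in pluripotent cells rose in TKO NSCs, the samples in which Sox2 fell. Of 6 tested, 5 rose and 0 fell, with a median of 2.54. Utf1 had 700 and 443 normalised counts in TKO NSCs, against 41.3, 49.8 and 60.2 in WT NSCs (log2 fold change 3.45, SE 0.31, adjusted p = 6.60e-06). Nanog had 509 and 222 in TKO NSCs, against 80.6, 32.5 and 97.1 in WT NSCs (log2 fold change 2.39, SE 0.48, adjusted p = 0.00218). TKO replicate 1 was the higher of the TKO libraries in both genes and in the summed pluripotent cell markers. Of the 11 pluripotent cell markers 6 rose and 0 fell in TKO NSCs, and none was at 0 in any NSC library. The markers share Pou5f1, Nanog, Utf1 and Fgf4 with the 6 targets, so these counts are not separate results. The part of such cells in the Sox values of TKO NSCs was not tested. In ESCs 1 of these 6 rose (Nanog) and 2 fell, Fgf4 by -0.68 (adjusted p = 0.000138) and Lefty1 by -0.67 (adjusted p = 0.000616) on the log2 scale.

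**Figure D4:**
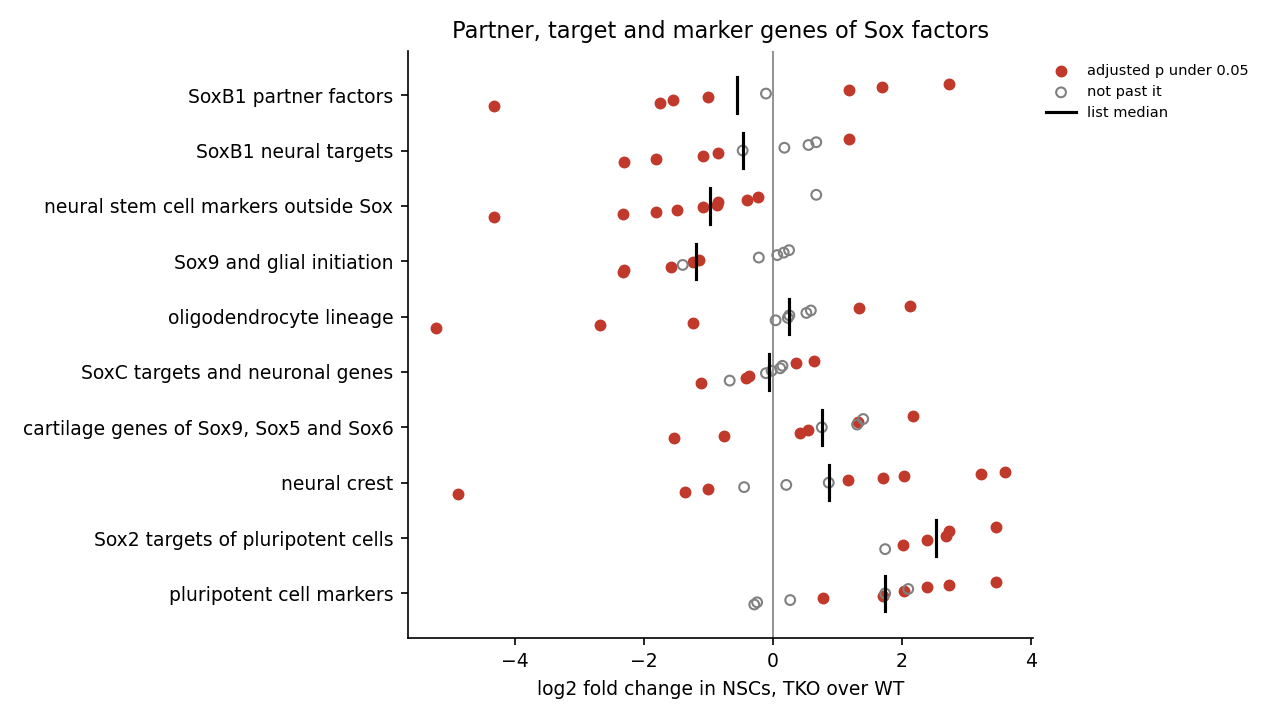
Log2 fold change of TKO over WT in NSCs for genes of 10 lists tied to the Sox factors, 1 point a gene; red points passed an adjusted p of 0.05, open points did not, and black bars are list medians. Medians lie at -1.19 for Sox9 and glial initiation and at -0.98 for neural stem cell markers, and at 2.54 for the Sox2 targets of pluripotent cells; some genes are in more than 1 list.

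Of 10 genes of Sox9 and glial initiation tested in NSCs, 5 fell and 0 rose in TKO, with a median of -1.19. The other 5, Mmd2, Zcchc24, Fgfr3, Aqp4 and S100b, did not pass the test, with log2 differences between -1.40 and 0.25. Sox9 itself was called higher, but not with chromosomes centred, as given above. Slc1a3, the astrocyte glutamate transporter, had 837 and 813 normalised counts in TKO NSCs, against 3756, 4234 and 4406 in WT NSCs (log2 fold change -2.32, SE 0.09, adjusted p = 2.06e-08). Nfia, which Sox9 induces and then works with in early gliogenesis, had 2121 and 2262 in TKO NSCs, against 6870, 5962 and 6859 in WT NSCs (log2 fold change -1.58, SE 0.08, adjusted p = 1.16e-07). Apcdd1, a shared target of Sox9 and Nfia, changed by -1.24 (adjusted p = 1.70e-06), and Gfap, at 82.3 normalised counts or fewer in every NSC library, by -2.31 (adjusted p = 0.00778). In ESCs limma called 0 of the 8 genes tested, 0 had an unadjusted p under 0.05, and edgeR and DESeq2 called 0.

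Oligodendrocyte lineage genes, where SoxE and SoxD factors act, did not move one way. Of 10 tested in NSCs, 2 rose and 3 fell, with a median of 0.24. Olig2, a specifier of the lineage, had 45.9 and 17.6 normalised counts in TKO NSCs, against 814, 1115 and 1464 in WT NSCs (log2 fold change -5.22, SE 0.36, adjusted p = 1.08e-06), and Olig1 changed by -2.68 (SE 0.20, adjusted p = 1.91e-06). Myrf, a regulator of myelin genes, rose by 2.13 (adjusted p = 3.66e-05), and Erbb3, a neuregulin receptor, by 1.34 (adjusted p = 0.0242).

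Cartilage genes known to respond to Sox9, Sox5 and Sox6 also went both ways in NSCs: 4 of 9 rose and 2 fell, with a median of 0.76. Col9a2 had 1082 and 1266 normalised counts in TKO NSCs, against 268, 289 and 224 in WT NSCs (log2 fold change 2.17, SE 0.16, adjusted p = 2.11e-06), and Matn3 changed by -1.53 (adjusted p = 0.0276). In ESCs 2 of 8 rose and 0 fell, among them Acan, the cartilage proteoglycan aggrecan, by 1.52 (SE 0.21, adjusted p = 0.000167). Neural crest genes, in which Sox9 and Sox10 act, had 5 of 11 higher and 3 lower in TKO NSCs, with a median of 0.87. Ngfr had 1105 and 540 in TKO NSCs, against 59.9, 60.6 and 68.0 in WT NSCs (log2 fold change 3.60, SE 0.31, adjusted p = 4.74e-06), whereas Msx1 had 31.2 and 39.0 against 1076, 1232 and 907 (log2 fold change -4.89, SE 0.21, adjusted p = 3.84e-08). Foxd3 rose by 3.23 (adjusted p = 0.00365) and had 127 and 41.0 in the TKO libraries. In ESCs limma called 0 of the 8 neural crest genes tested, 1 had an unadjusted p under 0.05, and edgeR and DESeq2 called 0.

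SoxC targets and neuronal genes went both ways in NSCs: of 10 tested, 2 rose and 3 fell, with a median of -0.06. Prox1 changed by -1.11 (adjusted p = 2.93e-05) and Dpysl3 by 0.63 (adjusted p = 0.000660), while Tubb3, the neuronal tubulin and a SoxC target, did not pass the test (adjusted p = 0.921). In ESCs, where Sox4 and Sox11 fell, 2 of 9 fell and 1 rose. Tubb3 had 2795 and 3137 normalised counts in TKO ESCs, against 4223, 4743 and 4644 in WT ESCs (log2 fold change -0.61, SE 0.10, adjusted p = 0.000525), and Elavl3, an RNA-binding protein of neurons, changed by -1.22 (SE 0.19, adjusted p = 0.000463).

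Loops were listed for fragments that hold an end or an annotated start of a Sox gene. Some loops of Sox1, Sox8 and Sox21 came from a fragment with only the far end of the gene and not its start. With 1 library a genotype there is no replicate check and no test. In all, 75 loops were listed for the members in the TKO NSC library and 71 in the WT NSC library, and 22 were listed in both, which is 29.3% of the TKO loops and 31.0% of the WT loops. Over the whole lists of 58145 TKO and 59754 WT loops these shares were 31.4% and 30.8%, so the members' loops recurred about as often as all loops did. Of 9 members with a loop, 4 had more in TKO, 1 had the same number and 4 had fewer; of all 13968 genes with a loop, 37.1% had more in TKO and 48.9% had fewer.

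Sox2 had 25 loops in the TKO library and 16 in the WT library, 9 of them in both. Most reached toward higher coordinates, downstream of Sox2, with 20 in TKO and 13 in WT. Partners between 420 and 468 kb away held 7 loops in TKO and 5 in WT, and those between 674 and 845 kb away held 7 in TKO and 4 in WT. The strongest WT loop of Sox2, 436 kb away, had a score of 7.0 in TKO and 15.3 in WT, and that 835 kb away had 5.90 in TKO and 15.1 in WT, whereas that 452 kb away had 11.4 in TKO and 10.8 in WT. Scores are the authors' own value per loop. Of the 9 loops of Sox2 in both lists, 6 had a lower score in TKO and 3 a higher one, with medians of 6.83 in TKO and 10.8 in WT; over the 22 such loops of all members, 13 were lower and 9 higher. Counting only loops of Sox2 with a score above the median of both lists (6.22) gave 14 in TKO and 13 in WT, so the difference in number lay among loops of lower score.

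**Figure D5:**
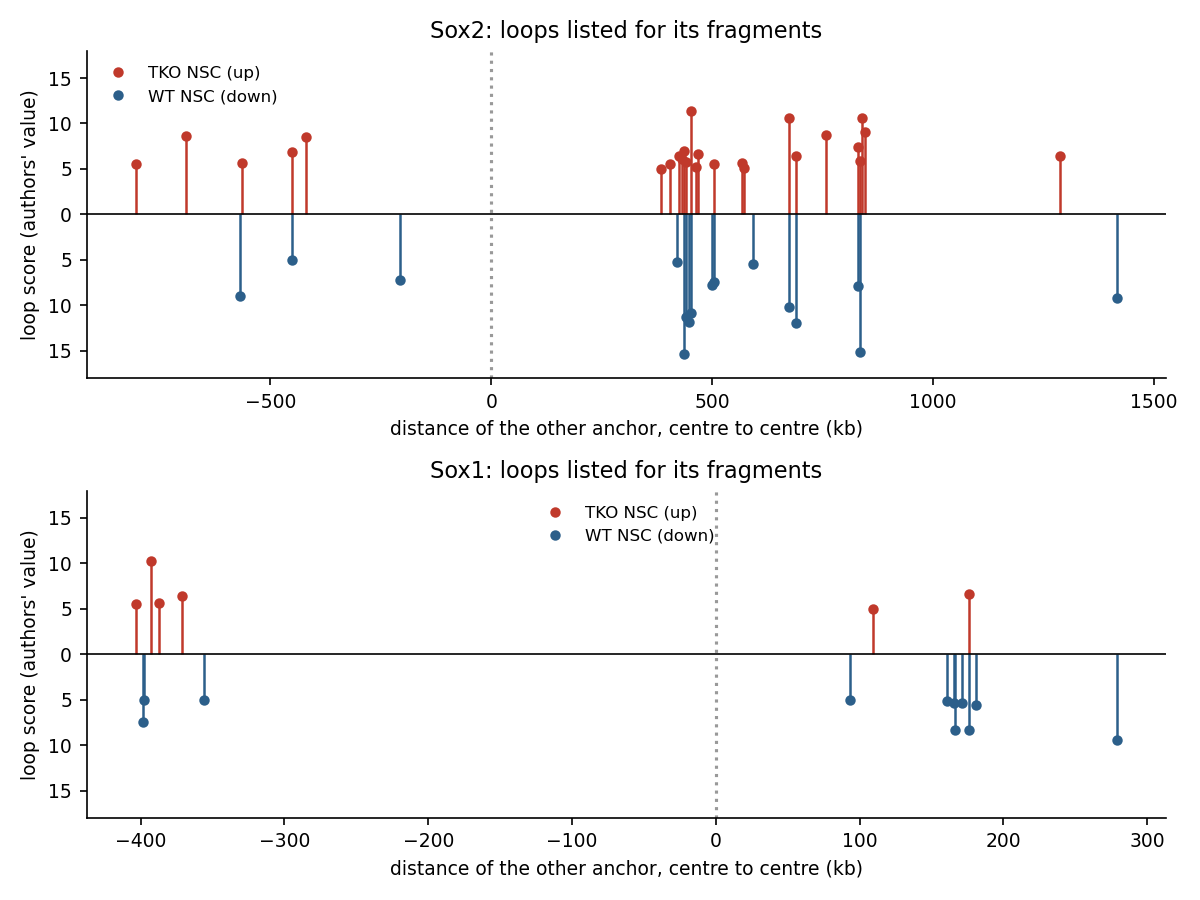
Loops of Sox2 (top) and Sox1 (bottom) by the distance in kb between anchor centres, with the authors' score upward for the TKO NSC library and downward for the WT NSC library, 1 library each. Sox2 has 25 TKO and 16 WT loops, crowded between 385 and 845 kb on one side, and Sox1 has 2 TKO and 8 WT loops on the side of higher coordinates.

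Sox1 had 6 loops in the TKO library and 11 in the WT library, 1 of them in both. Toward higher coordinates it had 2 in TKO and 8 in WT, and toward lower coordinates 4 in TKO and 3 in WT. The loop in both lists, 176 kb away, had a score of 6.62 in TKO and 8.33 in WT. It came from the fragment with the far end of Sox1 (chr8:12396505-12401718), so the fragment with its annotated start had no loop in both lists. The highest-scoring WT loop of Sox1 (9.45) joined it to a fragment 279 kb away with an end of Tubgcp3, a gene of the gamma-tubulin complex that did not pass the test (adjusted p = 0.270).

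Sox9 had 3 loops in TKO and 5 in WT. All 4 partners toward higher coordinates lay 365 to 391 kb away, with 2 listed in TKO and all 4 in WT; the strongest, 386 kb away, scored 8.46 in TKO and 8.68 in WT. Sox8 had 13 loops in TKO and 8 in WT, 5 in both, most of them to a gene-rich stretch 115 to 255 kb away. One shared partner of Sox8 held an end of Metrn, encoding the secreted glial factor meteorin, with a score of 11.9 in TKO and 16.9 in WT. Metrn itself had 2392 and 2855 normalised counts in TKO NSCs, against 10161, 9352 and 11286 in WT NSCs (log2 fold change -1.97, SE 0.09, adjusted p = 7.04e-08), while Sox8 did not pass the test. Another shared partner, with ends of Fbxl16 and Wdr24, scored higher in TKO, with 16.8 against 8.54 in WT. Fbxl16 changed by -0.34 (adjusted p = 0.0414), and Wdr24 did not pass the test (adjusted p = 0.848). Of the 5 shared loops of Sox8, 3 scored lower in TKO and 2 higher, with medians of 11.9 in TKO and 8.54 in WT. Most genes at loop partners of the members did not pass the test in NSCs, where 37.7% of all genes were called.

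Sox6 had 20 loops in TKO and 24 in WT, 5 in both, all toward lower coordinates and the strongest, 819 kb away, with a score of 16.2 in TKO and 15.8 in WT. Sox11 had 3 in TKO and 5 in WT, none shared; WT partners included ends of Cmpk2 and Rnf144a, which changed by -1.20 (adjusted p = 0.000725) and -0.30 (adjusted p = 0.0398) in TKO NSCs. Sox21 had 2 loops in TKO and 0 in WT, Sox4 2 in TKO and 1 in WT (6 in TKO and 9 in WT when fragments within 5 kb of its annotated start were counted), Sox3 1 in each library at different partners, and Sox5 0 in either.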

How the data were processed

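RNA-seq was compared in 10 libraries and pcHiC in 2. The other samples of the 36 in the series, 20 of CUT&Tag and 4 of bisulfite sequencing, were not used here. The submitters' processing notes name mm10 and, among other tools, STAR 2.7.3a with Trim Galore 0.6.5, and DESeq2 1.40.2 with featureCounts. The deposited gene tables hold signal, namely read counts divided by size factors, with NSCs and ESCs scaled separately. Whole reads were recovered for 100% of values (tolerance 1e-06). Of nonzero values up to 20 reads, between 75.2% and 82.7% were even in each library. Whether the reads are independent counts was not tested, and edgeR and DESeq2 treat them as such. The deposited loop lists give the authors' score per loop, 5 or more in both.

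Genes with a mean of at least 10 were tested on log2(value + 1) with limma 3.58.1 (trend, R 4.3.3), with Benjamini-Hochberg adjustment over all genes and a threshold of 0.05. NSCs and ESCs were fitted separately. The difference of the TKO effect was fitted over all 10 libraries, and NSCs were set against ESCs on recovered reads with joint size factors. A loop belonged to a Sox gene if either of its fragments, captured or not, held an end of the gene or an annotated start. Fits were tested on simulated counts. Alternatives were edgeR 4.0.16 and DESeq2 1.42.0 on recovered reads, other pseudocounts, filters and scalings, centred chromosomes, a replicate block and each library left out.

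Sample codes recur in NSCs and ESCs, but the labels do not say outright that equal codes are the same line. The deviations of same-numbered TKO samples correlated with r = 0.03, so no pairing was assumed in the main fits. Named were all members, Tet1 to Tet3, up to 4 called genes with the largest change in each list, 3 genes most correlated with each of Sox1, Sox2 and Sox9, and genes at loop partners. Listed genes that did not pass could be named too. The members and lists were chosen with earlier results of these data known.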

Additional observations from a re-analysis of the deposited data

Results flagged for a closer look

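For 6 of 9 Sox genes the TKO effect differed between the cell types by the test of the difference (limma, adjusted p under 0.05). Of all 15381 genes tested, 20.7% were called. On the log2 scale the effect in NSCs minus that in ESCs was -2.57 for Sox1, -1.32 for Sox2, -1.22 for Sox3 and -1.99 for Sox21. It was 0.98 for Sox4 and 0.82 for Sox11. The call of Sox1 was lost in 7 of 20 alternatives, with an adjusted p of up to 0.106. The SoxB genes were lower in both TKO NSC libraries than in the 3 WT NSC libraries, and in ESCs Sox2 was higher in both TKO libraries. The SoxC genes were lower in both TKO ESC libraries than in the 3 WT ESC libraries, and in NSCs Sox4 was higher in both TKO libraries. Groups of 2 or 3 libraries are too small to look for single outlying samples.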

How the results depend on the processing

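Over 822 recomputed values of the members, 789 kept their direction and side of the threshold, 11 lost a call, 2 gained one and 20 changed sign, and those that changed included none of NSCs against ESCs. Calls were lost for Sox9 in NSCs with chromosomes centred, for Sox2 in ESCs in 3 alternatives and for the cell type difference of Sox1 in 7; Sox3 in ESCs was gained without TKO replicate 2 (0.64, adjusted p = 0.0341) and the difference of Sox5 without WT ESC replicate 1 (2.74, adjusted p = 0.0342). The cause was not tested.

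No value that changed sign had been called. With a library left out, Sox11 in NSCs ran between -0.010 and 0.089 and Sox8 between -0.924 and 0.185, with the sign turned without TKO replicate 2. In ESCs Sox1 ran between -0.266 and 1.082 (turned without WT replicate 2), Sox21 between -0.062 and 0.823 (without TKO replicate 2) and Sox8 between -1.0 and 0.21 (without TKO replicate 1). The difference of the TKO effect ran between -0.579 and 0.631 for Sox8 and between -0.070 and 0.090 for Sox9. It was -0.021 with edgeR and -0.0015 with DESeq2 for Sox8, and -0.017 with edgeR, -0.0040 with DESeq2 and -0.146 with chromosomes centred for Sox9.

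The count of all genes called in ESCs was 1588 with chromosomes centred, against 2437, and ran between 1108 and 2302 with a library left out, lowest without TKO replicate 2. The count for the difference of the TKO effect ran between 2092 and 3308 with a library left out, against 3177, lowest without TKO NSC replicate 1. Loops above the median score numbered 42 in TKO and 39 in WT, against 75 and 71. In fits of 1 cell type the replicate block joined TKO and WT lines of equal replicate number. In fits of both cell types it joined samples of equal number within a genotype. Neither pairing is given outright by the labels. With the block, Sox2 in ESCs was 0.32 (limma adjusted p = 0.0634), so that 2 members were called there, 0 higher and 2 lower. The block changed no other call of a member, with 8 called in NSCs and 6 for the difference. Sox8, and Sox1 and Sox5 in ESCs, had few counts and wide spread between libraries, and differences in them were not resolved.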
